A study of Mus musculus with 71 samples.

Results

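Genes for 8 enzymes that oppose Polycomb repression or act beside it were examined in mouse embryonic stem cells (mESCs): the H3K27 demethylases Kdm6a and Kdm6b, the MLL-family H3K4 methyltransferases Kmt2a, Kmt2b, Kmt2c and Kmt2d, and the H3K27 acetyltransferases Ep300 and Crebbp. They were chosen by name as a list of 8, and 6 of the 8 were measured among 11113 RefSeq accessions kept of 34010. The RNA-seq tables held poly(A) RNA of R1 mESCs in 2 genotypes with 2 libraries each. WT mESCs were unedited. H1-TKO mESCs carried a knockout of H1c, H1d and H1e, which encode linker histones, made by CRISPR/Cas9 with a guide common to the 3 genes and grown from single-cell clones, and how many clones stand behind the 2 libraries is not given in the sources used here. H3K27me3 ChIP-seq peak lists were available as 1 list per genotype. The study describes its sequencing experiments as independent duplicates of these lines, so the p-values below measure the spread between libraries and not between independently derived lines.

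The genotype of each RNA-seq table was taken from the table's own heading. The sample labels name the opposite genotype for all 4 tables, and read by the labels every direction given here would be reversed. All 4 tables equalled the column of the same genotype and replicate in the study's source data in 100% of the 1999 rows compared, within a relative tolerance of 0.001. The targeted genes do not settle the matter, because their messages were rare in poly(A) RNA: H1f3, the current name of H1d, stood at 3.88 and 41.4 normalized counts in WT and at 1.10 and 0 in H1-TKO libraries, and H1f2 and H1f4 had at most 56.7 in any library.

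The members work on the same nucleosomes in different ways. Polycomb repressive complex 2 (PRC2) methylates lysine 27 of histone H3, and KDM6A (UTX) and KDM6B (JMJD3) are the enzymes known to remove that mark. KMT2C (MLL3) and KMT2D (MLL4) place H3K4me1 at enhancers in complexes that contain KDM6A, KMT2A (MLL1) and KMT2B (MLL2) methylate H3K4 at promoters, and p300 (Ep300) and CBP (Crebbp) acetylate lysine 27, which cannot be methylated while it is acetylated. The question addressed was whether the genes for these enzymes differed in RNA between WT and H1-TKO mESCs.

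The starts of 6 members were held in the RefSeq promoter table of GRCm38.p6, a build used here for sequence only, and Kdm6b and Kmt2b had no entry. The 250 bases before the start are shown for the 2 genes that passed the test of expression (Kmt2d, chr15:98871206-98871455, minus strand, and Kmt2c, chr5:25498784-25499033, minus strand), for the X-linked demethylase (Kdm6a, chrX:18162325-18162574, plus strand) and for the member with the smallest difference (Ep300, chr15:81585964-81586213, plus strand), because they show how far the promoters of these genes differ in CpG content. Capitals mark GGGCGG on either strand, the core of the GC box bound by SP-family factors, with overlapping matches counted.
Kmt2d: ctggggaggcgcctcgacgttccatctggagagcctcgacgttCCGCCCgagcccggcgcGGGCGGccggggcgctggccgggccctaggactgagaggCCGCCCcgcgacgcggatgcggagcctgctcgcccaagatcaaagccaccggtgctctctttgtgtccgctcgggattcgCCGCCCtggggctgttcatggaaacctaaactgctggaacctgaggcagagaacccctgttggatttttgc
Kmt2c: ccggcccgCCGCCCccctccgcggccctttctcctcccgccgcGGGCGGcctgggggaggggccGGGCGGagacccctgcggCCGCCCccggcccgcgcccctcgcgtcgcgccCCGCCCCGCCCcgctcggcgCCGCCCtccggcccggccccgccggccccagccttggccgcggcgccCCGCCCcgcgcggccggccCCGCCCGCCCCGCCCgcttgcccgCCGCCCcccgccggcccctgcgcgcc
Kdm6a: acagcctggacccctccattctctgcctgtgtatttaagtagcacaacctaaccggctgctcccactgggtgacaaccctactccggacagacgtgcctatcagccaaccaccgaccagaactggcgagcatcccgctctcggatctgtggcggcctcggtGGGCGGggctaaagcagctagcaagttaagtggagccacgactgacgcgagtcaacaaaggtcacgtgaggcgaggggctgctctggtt
Ep300: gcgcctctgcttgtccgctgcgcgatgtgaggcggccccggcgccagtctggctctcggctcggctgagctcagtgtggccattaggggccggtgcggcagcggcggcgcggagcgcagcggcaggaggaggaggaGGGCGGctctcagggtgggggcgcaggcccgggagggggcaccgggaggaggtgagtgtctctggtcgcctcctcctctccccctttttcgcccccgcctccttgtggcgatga
All 6 promoters held GGGCGG, against 32.7% of 32851 promoters of the same length. The number of matches was 12 in Kmt2c, 4 in Kmt2d, 4 in Kmt2a, 2 in Crebbp and 1 each in Ep300 and Kdm6a. The CpG count over the 250 bases was 48 in Kmt2c, 44 in Crebbp, 29 in Kmt2a, 26 in Kmt2d, 25 in Ep300 and 15 in Kdm6a, and the median of all promoters was 6. These matches describe the letters in the window and not the binding of any factor.

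Each of the 6 measured genes had 1 RefSeq accession in the tables. Kmt2b, in mm9 on chromosome 7 from 31353877 to 31373745 (minus strand), had 2 accessions, and both were at 0 in all 4 libraries, so its RNA was not measured. Genes with several accessions were often at 0: all accessions were at 0 in all 4 libraries for 32.6% of 5158 such symbols and for 19.3% of 18976 symbols with 1 accession. Kmt2a, on chromosome 9 from 44611438 to 44689379 (minus strand), matched no accession by name and has no value. Reads assigned to accessions came to 10538507 and 8292007 (WT) and to 6951619 and 7346122 (H1-TKO). The measured members rested on 562 to 4527 reads in a library.

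All 6 measured members had fewer normalized counts in both H1-TKO libraries than in both WT libraries, a separation that 34.2% of the 11113 accessions shared in this direction. Kmt2d and Kmt2c fell by limma, and Kdm6a, Kdm6b, Ep300 and Crebbp did not pass an adjusted p of 0.05 in that test. The 2 called members of 6 stand beside 20.5% of all accessions called in either direction, 10.7% called lower and 9.84% called higher. These counts turned on single libraries: without either H1-TKO library 1 member was called, with 603 and 585 accessions called in all, and without WT replicate 1 or 2 it was 6 and 5 members, with 5468 and 4950 accessions, against 2282 from the 4 libraries. The median log2 fold change of the 6 genes was -0.56 and that of all accessions -0.03. By chromosome the median was -0.02 on 15 (Kmt2d and Ep300), -0.004 on 5 (Kmt2c) and -0.37 on 11 (Kdm6b). On 16 (Crebbp) it was 0.04 and on X (Kdm6a) -0.09. RNA per cell and the share of cells that express a gene cannot be told apart in such bulk libraries.

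**Figure D1:**
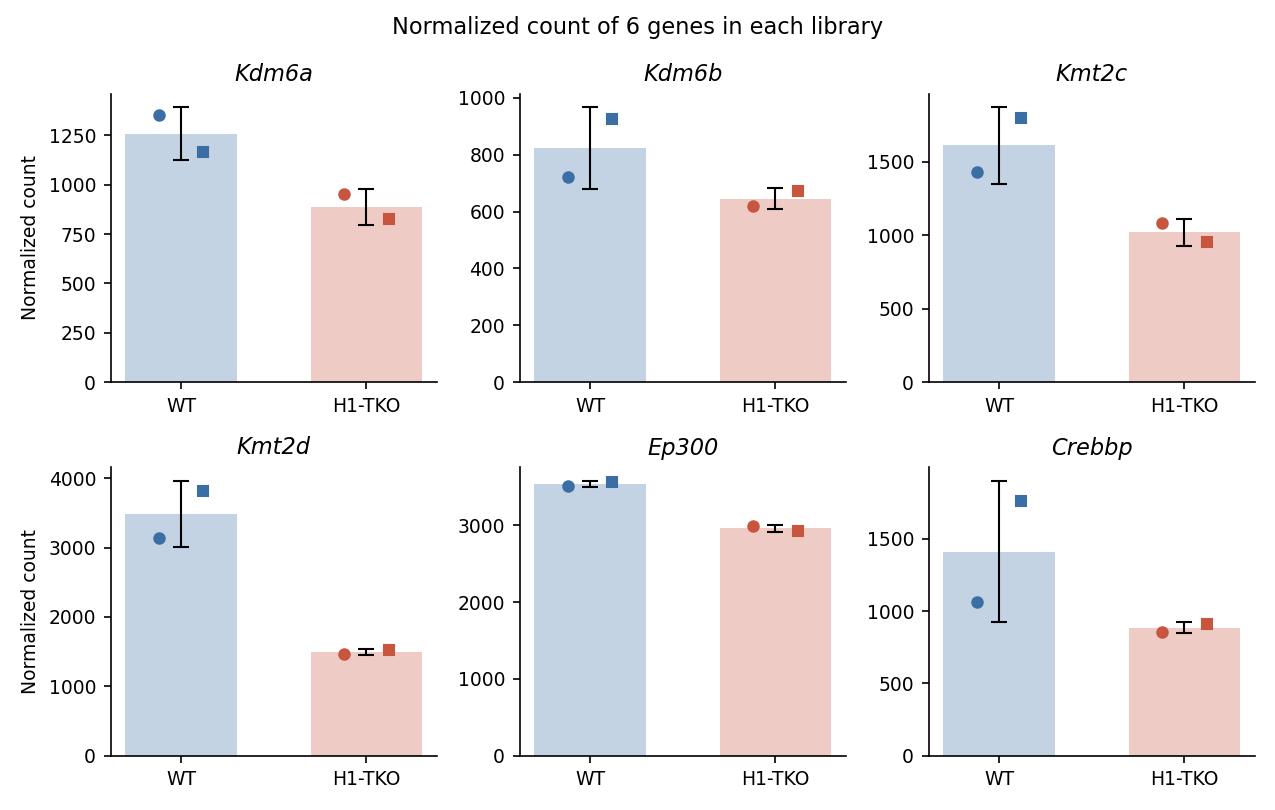
Normalized counts (vertical axes, starting at 0) of the 6 measured genes in WT (blue) and H1-TKO (red) mESCs. Circles are replicate 1, squares replicate 2, bars the mean and error bars the SD of 2 libraries; both H1-TKO libraries lie below both WT libraries in every panel, and the WT replicates of Crebbp at 1065 and 1758 lie furthest apart relative to their mean.

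Among the MLL methyltransferases, Kmt2d showed the largest difference of the members. On chromosome 15 in mm9 from 98662100 to 98701614 (minus strand), its normalized counts were 3142 and 3822 (WT) against 1460 and 1521 (H1-TKO). The lower WT library had more than 2-fold the counts of either H1-TKO library. The H1-TKO mean of 1490 ± 43.1 was 2.34-fold below the WT mean of 3482 ± 481 (SD, n = 2 each). Its log2 fold change was -1.22 (SE 0.14, 95% interval -1.54 to -0.89, adjusted p = 0.00354, limma). Without a trend in limma's variance the same log2 fold change had an adjusted p of 0.0582 and was not called. Against each WT library in turn, the log2 differences of the 2 H1-TKO libraries ran from -1.39 to -1.05.

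Kmt2c, the paralog of Kmt2d, lies on chromosome 5 from 24777612 to 25004601 (minus strand). It had normalized counts of 1426 and 1793 (WT) against 1083 and 953 (H1-TKO). The H1-TKO mean was 1.58-fold below the WT mean, and the genotypes did not overlap. The log2 fold change was -0.65 (SE 0.16, 95% interval -1.03 to -0.28, adjusted p = 0.0302, limma). This call was near the threshold, and it was lost without H1-TKO replicate 1 (-0.75, adjusted p = 0.142) and without H1-TKO replicate 2 (-0.56, adjusted p = 0.274), with log2 fold changes of similar size. Without WT replicate 1 the log2 fold change was -0.82, and without WT replicate 2 it was -0.49.

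Within each library Kmt2d exceeded Kmt2c in normalized counts by a smaller factor in H1-TKO mESCs. The ratio of Kmt2d to Kmt2c was 2.20 and 2.13 in WT and 1.35 and 1.60 in H1-TKO libraries. The log2 ratio was lower by 0.56 in H1-TKO mESCs and the genotypes did not overlap, but an exact permutation test of 2 libraries against 2 cannot go below p = 0.333.

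For the H3K27 demethylases, Kdm6a on the X chromosome from 17739701 to 17857062 (plus strand) had normalized counts of 1354 and 1164 (WT) against 954 and 825 (H1-TKO). Its mean was 29.3% lower in H1-TKO mESCs. The log2 fold change of -0.50 (SE 0.15, 95% interval -0.86 to -0.14) had an adjusted p of 0.0571 by limma. Kdm6b, on chromosome 11 from 69212010 to 69227177 (minus strand), had normalized counts of 722 and 925 (WT) against 619 and 671 (H1-TKO). The lower WT library exceeded the higher H1-TKO library by less than the WT libraries differed from each other. Its log2 fold change was -0.34 (SE 0.17, 95% interval -0.75 to 0.06, adjusted p = 0.19, limma), and the median of the 914 accessions on chromosome 11 was -0.37. The ratio of Kdm6a to Kdm6b overlapped between the genotypes, at 1.87 and 1.26 in WT and 1.54 and 1.23 in H1-TKO libraries.

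Uty, the Y-linked homolog of Kdm6a with weak demethylase activity, was counted at 393 and 343 in WT and at 4.41 and 9.48 in H1-TKO libraries. It fell by 5.61 on the log2 scale (SE 0.43, adjusted p = 0.00135, limma). All 5 Y-linked accessions kept (Zfy1, Uty, Kdm5d, Eif2s3y and Ddx3y) fell, with log2 fold changes from -6.81 to -4.03. The difference therefore spanned the Y-linked genes measured and was not particular to the Kdm6a homolog. The part that this difference plays in the other values was not tested.

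Neither H3K27 acetyltransferase was called by limma. Ep300, on chromosome 15 from 81415781 to 81482507 (plus strand), was the closest of the members between replicates, at 3512 and 3568 (WT) against 2991 and 2927 (H1-TKO). The H1-TKO mean was 16.4% lower. The log2 fold change was -0.26 (SE 0.11, 95% interval -0.52 to 0.00, adjusted p = 0.137, limma), so that a fall of more than 0.52 lies outside the interval. Crebbp, on chromosome 16 from 4084048 to 4213404 (minus strand), had normalized counts of 1065 and 1758 (WT) against 858 and 911 (H1-TKO). Its log2 fold change of -0.63 (SE 0.23, 95% interval -1.17 to -0.09) had an adjusted p of 0.0922 by limma, and DESeq2 called it at -0.66 with an adjusted p of 0.0377. The value turned on the WT library used: it was -0.99 without WT replicate 1 but -0.27 when WT replicate 2 was left out. The ratio of Ep300 to Crebbp overlapped between the genotypes, at 3.30 and 2.03 in WT and 3.49 and 3.21 in H1-TKO libraries.

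Per kb of the longest annotated transcript, Ep300 was the most abundant of the 6 genes in both genotypes, at 401 and 408 normalized counts per kb in WT and 342 and 335 in H1-TKO libraries. In WT mESCs Kdm6a (228 and 196), Crebbp (142 and 234) and Kmt2d (159 and 193) followed, and the range of Crebbp overlapped those of Kdm6a and Kmt2d, which did not overlap each other. Kdm6b (109 and 139) and Kmt2c (84.4 and 106) came last, with gaps to their neighbours that were smaller than their own spread. In H1-TKO mESCs Kmt2d stood at 73.7 and 76.8 per kb, below Kdm6b at 93.1 and 101, whereas both WT libraries had Kmt2d above Kdm6b. Kdm6a (161 and 139) and Crebbp (114 and 121) came next after Ep300 there, Kmt2c was last at 64.1 and 56.4 per kb, and no gene overlapped its neighbour in this order. The transcript model of Crebbp in the annotation may lack its 3' UTR. Its level per kb would then be an overestimate, and its rank above Kdm6b in H1-TKO mESCs would rest on a length that is too short.

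**Figure D2:**
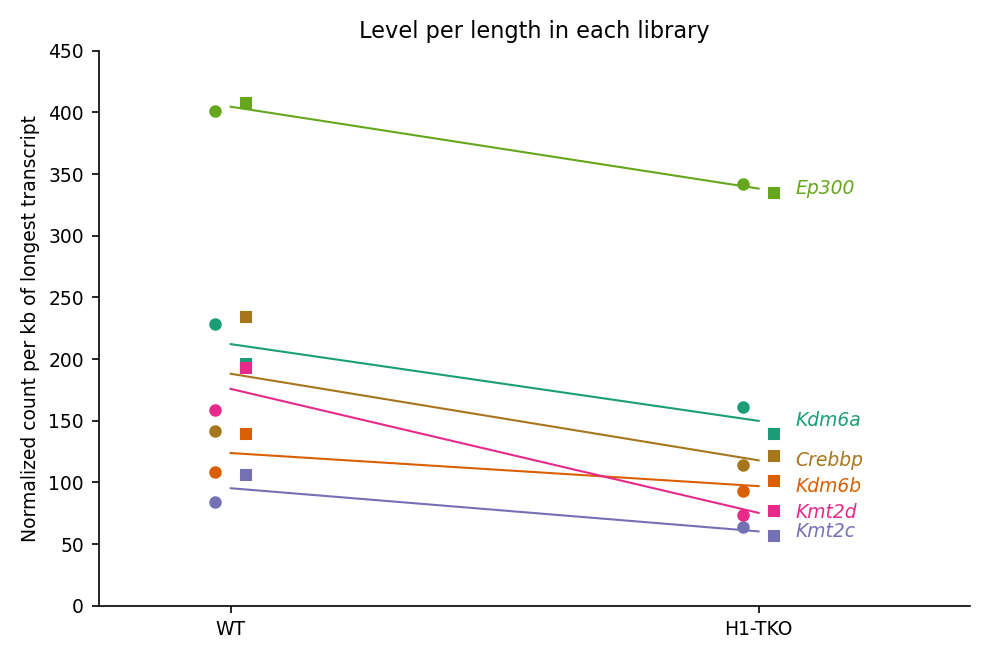
Normalized counts per kb of the longest annotated transcript (vertical axis, from 0) of the 6 measured genes in WT and H1-TKO mESCs. Circles are replicate 1, squares replicate 2, and lines join the means; Ep300 stays highest, and the line of Kmt2d falls from a mean of 176 to 75.3 and crosses that of Kdm6b.

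Long transcripts as a class were lower in H1-TKO libraries, and several members are long. The longest transcript measures 19.8 kb for Kmt2d, 16.9 kb for Kmt2c, 8.75 kb for Ep300, 7.51 kb for Crebbp, 6.65 kb for Kdm6b and 5.94 kb for Kdm6a. The median log2 fold change was 0.02 for transcripts of up to 2 kb, -0.08 from 4 to 6 kb, -0.25 from 8 to 10 kb and -0.58 for the 32 accessions from 15 to 20 kb. In that last class 16 accessions fell and 3 rose. Kmt2c lay 0.07 below its class median, with 15 of the 32 accessions at or below it, and Kmt2d lay 0.64 below, with 7 of the 32 at or below it. Ep300 lay 0.01 below the median of its class. Kdm6a lay 0.42, Kdm6b 0.20 and Crebbp 0.49 below theirs. If its model lacks a 3' UTR, Crebbp could belong to a longer class, of which that from 8 to 10 kb had a median of -0.25 and that from 10 to 15 kb one of -0.29.

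The WT libraries also differed from each other by length. The median of replicate 2 minus replicate 1 was 0.11 for transcripts of up to 2 kb and -0.21 for those of 15 to 20 kb, and in H1-TKO libraries these medians were 0.03 and 0.04. Kmt2c and Kmt2d went the other way, at 0.33 and 0.28 higher in WT replicate 2. The class of 15 to 20 kb was lower in H1-TKO mESCs against either WT library, with medians of -0.65 against replicate 1 and -0.45 against replicate 2. After the trend with length was removed from each library, a fit chosen after seeing the data, Kmt2d was still called at a log2 fold change of -0.76 (95% interval -1.20 to -0.32, adjusted p = 0.03, limma). Kmt2c stood at -0.24 (95% interval -0.72 to 0.24, adjusted p = 0.422) and was no longer called. Ep300 stood at -0.03, Kdm6b at -0.20, Kdm6a at -0.39 and Crebbp at -0.45 in that fit, none of them called. The trend was smoothed over transcripts of all lengths, of which 32 were of 15 to 20 kb. How fully it was removed from that class, which holds Kmt2d and Kmt2c, was not tested.

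**Figure D3:**
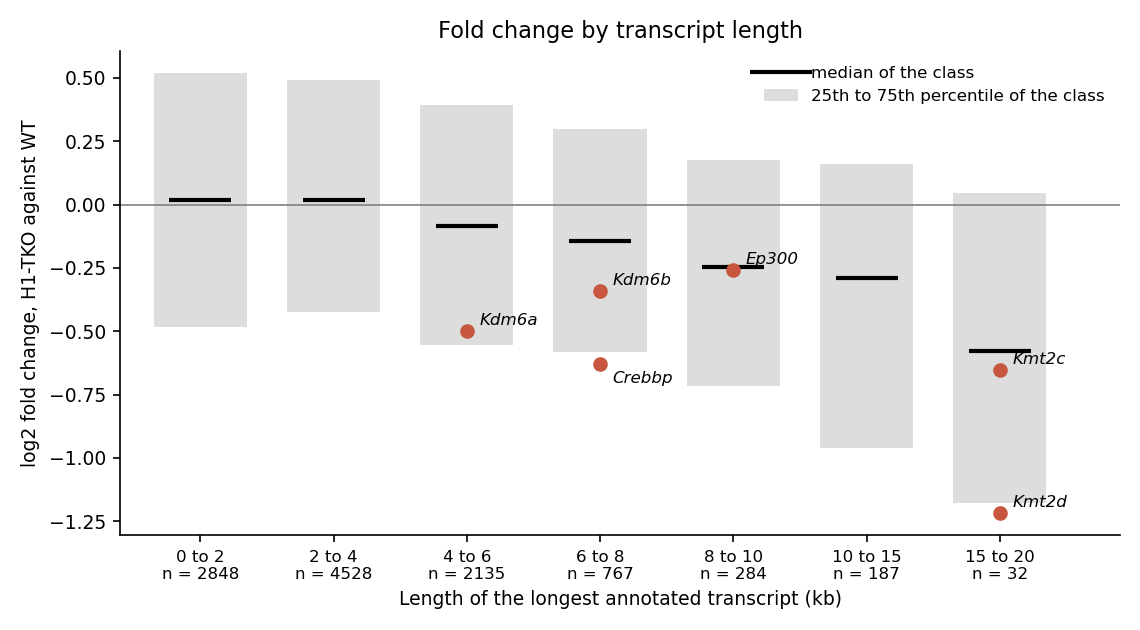
Log2 fold change of H1-TKO against WT (vertical axis) by class of transcript length (horizontal axis, kb, with the number of accessions). Grey boxes span the 25th to 75th percentile, black lines are the class medians and red points the members; the medians go from 0.02 to -0.58, Kmt2c and Ep300 lie near the median of their class and Kmt2d below the box of its class.

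**Figure D4:**
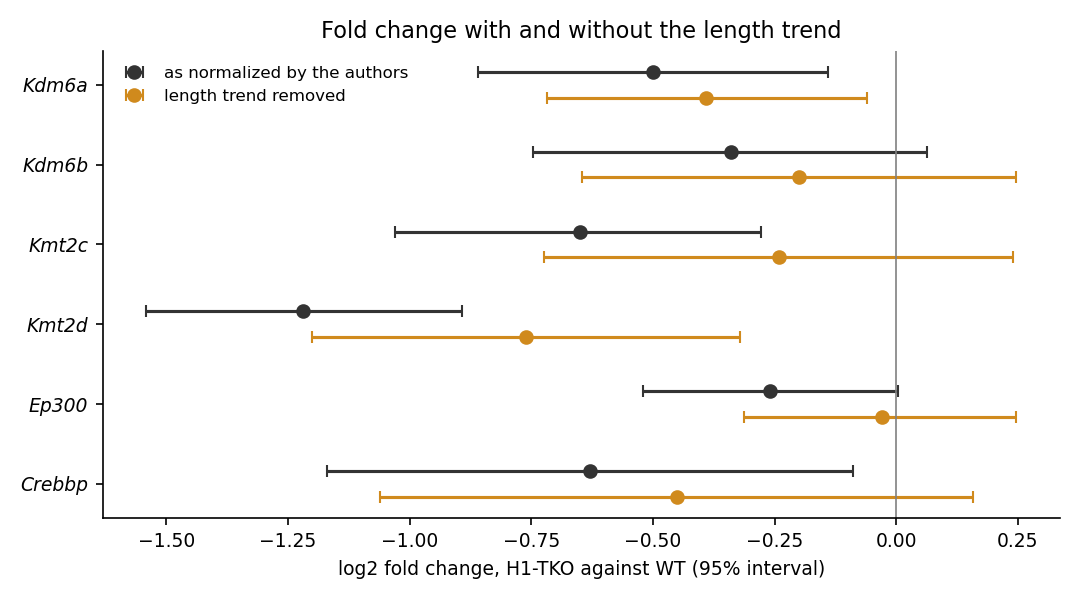
Log2 fold change of H1-TKO against WT with its 95% interval (horizontal axis) for the 6 measured genes, with the values as the authors normalized them (black) and with the trend in transcript length removed (orange). All points lie below 0, and with the trend removed the intervals of Kmt2d and Kdm6a lie wholly below 0.

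H3K27me3 was not listed at any of the 8 genes. Neither genotype had a peak inside the gene or within 5 kb of an annotated start of any member. Within 2 kb of a start, 14.4% of 22380 protein-coding genes had a WT peak and 13.1% an H1-TKO peak. The peak nearest to Kmt2d lay 22.3 kb beyond its 3' end in WT (chromosome 15, 98638395 to 98639751, MACS score 73.1) and at almost the same place in H1-TKO mESCs (98638323 to 98639720, score 81.4). On the other side, 22.4 kb upstream of its start, a WT peak had a score of 408 (98723973 to 98726061), and the H1-TKO list had a peak at nearly the same place with a score of 171 (98724091 to 98726149) and a further one 25.7 kb upstream with a score of 110. MACS scores of separate libraries are not on 1 scale, so that their sizes were not compared. Kmt2a had an H1-TKO peak 2.74 kb beyond its 3' end (chromosome 9, 44608471 to 44608701), with a score of 60.1 in a list whose lowest score is 50, and its nearest WT peak was 256 kb away. The nearest peaks to Kdm6b, Kmt2b and Ep300 lay 29.2 to 42.0 kb from the gene in both lists, and those of Kmt2c, Crebbp and Kdm6a lay over 169 kb away. With 1 list per genotype these places are a description without a replicate check.

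Partners in MLL complexes, and in SET1 complexes built around enzymes other than the members, were compared next. Of 18 partners of MLL and SET1 complexes 16 passed the filter, 4 fell, 1 rose and 11 were not called, and the median log2 fold change of the 16 was -0.23. Of all accessions 10.7% were called lower and 9.84% higher. Setd1b, a catalytic subunit of a SET1 complex, had normalized counts of 470 and 938 (WT) against 118 and 107 (H1-TKO) and fell by 2.55 on the log2 scale (adjusted p = 0.0046, limma). Hcfc1, an X-linked scaffold shared by several complexes, went from 7668 and 9002 to 4504 and 4354 and fell by 0.91. Rbbp5, a core subunit of all MLL complexes, went from 1246 and 1302 to 2067 and 2067 and rose by 0.70, where the median of the 617 accessions on its chromosome 1 was 0.50. The core subunit Wdr5 had 2994 and 3085 in WT and 3267 and 3276 in H1-TKO libraries and was not called (adjusted p = 0.524), and Bod1l overlapped between the genotypes. Ash2l, counted over 3 accessions and so only in part, was at 62.8 and 106 in WT and 18.7 and 24.2 in H1-TKO libraries and was called lower.

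The enzymes that remove H3K4 methylation had 6 of 6 genes measured, of which 2 fell. For this list and the next, 10.7% of all accessions were called lower and 9.84% higher. Kdm5c, an X-linked H3K4 demethylase, had normalized counts of 3241 and 3602 (WT) against 2035 and 2158 (H1-TKO), a log2 fold change of -0.70 (adjusted p = 0.0109, limma). Its Y-linked homolog Kdm5d was the other, at 45.8 and 49.1 in WT and 1.10 and 3.16 in H1-TKO libraries. Kdm5b (8324 and 8999 in WT, 9245 and 8827 in H1-TKO) and Kdm1a overlapped between the genotypes. Of the other 15 JmjC demethylases 14 passed the filter, 5 fell and 9 were not called, with a median of -0.40. Beside Uty these included Kdm2b, an H3K36 demethylase of a variant PRC1 complex, at 498 and 411 in WT and 108 and 156 in H1-TKO libraries (1 of its 2 accessions), Phf2 at 221 and 141 against 65.0 and 47.4, and Riox2 at 620 and 660 against 420 and 390. Kdm3b (2171 and 2343 against 2042 and 2098) and Jmjd6 were not called.

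Other acetyltransferases and partners of CBP and p300 moved in both directions. Of 18 genes 12 passed the filter, 3 fell, 2 rose and 7 were not called, with a median of -0.44. Of all accessions 10.7% were called lower and 9.84% higher. Hat1, which acetylates newly made histone H4, had normalized counts of 4169 and 3576 (WT) against 8380 and 8558 (H1-TKO) and rose by 1.13 on the log2 scale (SE 0.12, adjusted p = 0.00314, limma). Kat8, an H4K16 acetyltransferase, went from 395 and 461 to 771 and 761 and rose by 0.84. Kat6a, an H3 acetyltransferase, went from 2338 and 2430 to 1161 and 1242 and fell by 0.99, and Cited2, a partner of CBP and p300, went from 697 and 468 to 277 and 273 and fell by 1.05. Naa50 and Ncoa1 were not called, at log2 fold changes of 0.12 and 0.53. Kat2a, which has 2 accessions, was at 0 throughout.

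Of 17 deacetylase and NuRD genes 12 passed the filter, 3 fell and 9 were not called, with a median of -0.31, where 10.7% of all accessions were called lower. Hdac1 had normalized counts of 413 and 368 (WT) against 73.8 and 76.9 (H1-TKO), a fall by 2.35 on the log2 scale (SE 0.22, adjusted p = 0.00232, limma). Its paralog Hdac2 had 2729 and 2424 in WT and 2375 and 2282 in H1-TKO libraries and was not called. Mta1 and Gatad2b, subunits of NuRD, fell by 0.69 and 0.72. Chd4, the NuRD remodeler, had a log2 fold change of -0.43 and an adjusted p of 0.05 that lay just above the threshold before rounding.

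**Figure D5:**
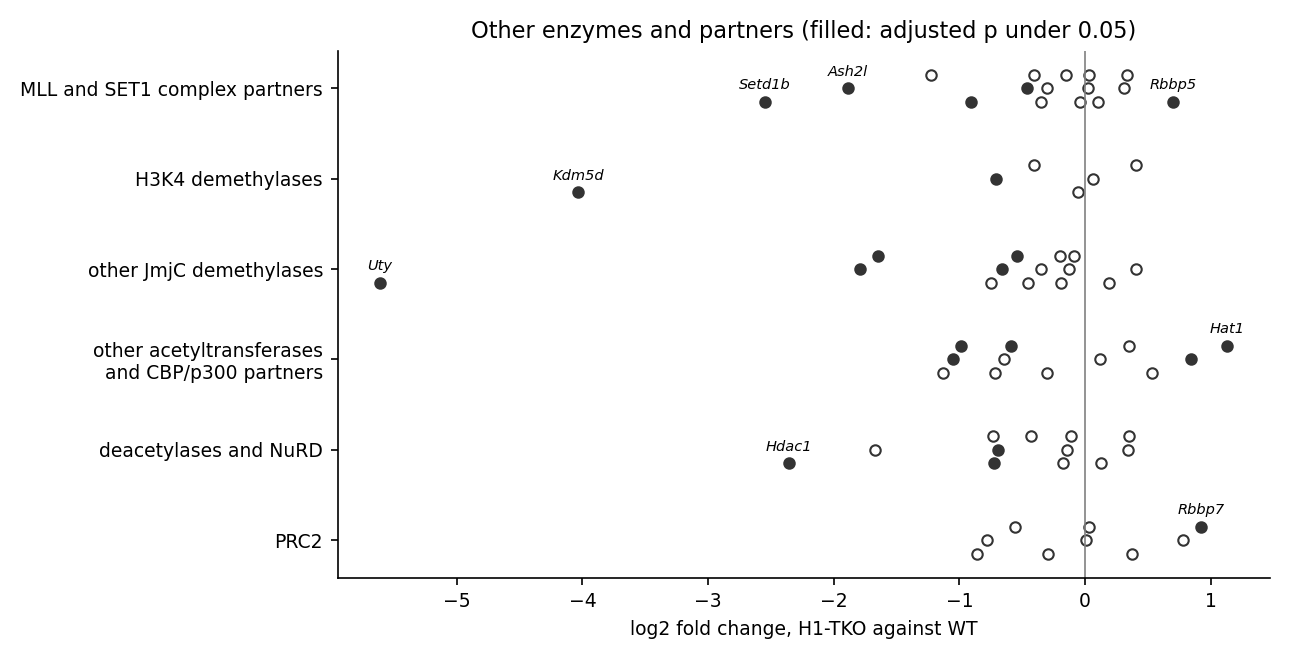
Log2 fold change of H1-TKO against WT (horizontal axis) of the genes above the filter in 6 lists, 1 point per gene, filled where the adjusted p was under 0.05. Filled points lie on both sides of 0 among the MLL and SET1 partners and the acetyltransferases, the Y-linked Uty (-5.61) and Kdm5d (-4.03) lie furthest left, and Rbbp7 is the filled point among PRC2 genes.

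PRC2, the enzyme complex that the demethylases counteract, was compared as the opposing activity. Of 12 PRC2 genes 9 passed the filter, 1 rose and 8 were not called, with a median of 0.00, where 9.84% of all accessions were called higher and 10.7% lower. Some of the 9 have several accessions and so were counted only in part. Rbbp7, a histone-binding subunit also found in other complexes, had normalized counts of 4971 and 3137 (WT) against 7591 and 7409 (H1-TKO) and rose by 0.93 on the log2 scale (SE 0.20, adjusted p = 0.0219, limma). Eed had 2826 and 2918 in WT and 3012 and 2855 in H1-TKO libraries, and Rbbp4 overlapped as well. Ezh2 and Suz12 have 2 accessions each and stood at no more than 5.43 normalized counts, so their RNA was not measured.

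The accessions whose profile over the 4 libraries was nearest to that of Kmt2d, by Euclidean distance of centred log2 values among 7027 accessions with a mean of at least 100, were Dhx8, Bak1 and Vps52. Dhx8, on chromosome 11 with its median of -0.37, had normalized counts of 2349 and 2923 (WT) against 1113 and 1135 (H1-TKO), at a distance of 0.03. Bak1 (693 and 795 against 312 and 328) and Vps52 (517 and 612 against 226 and 237) lay at distances of 0.06 and 0.07.

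The libraries also differed in other genes and in quality, and differences between WT and H1-TKO libraries cannot be told apart from genotype in this design. Pluripotency markers such as Sox2 (3958 and 5441 in WT, 9654 and 9460 in H1-TKO), Zfp42 (6015 and 8991 against 8330 and 8764) and Utf1 (3421 and 6322 against 6277 and 6218) were abundant in all 4, whereas Nanog and Esrrb, which have several accessions, were at or near 0. The labels give mESCs as the source, although their growth note describes HeLa cells. Of 8 pluripotency markers above the filter 1 fell and 4 rose, Klf4 by 1.45, Sox2 by 1.04, Tfcp2l1 by 0.97 and Dppa5a by 0.90 on the log2 scale. The summed differentiation markers were at 5485 and 1522 in WT and 652 and 723 in H1-TKO libraries, a sum that rested mainly on Nes (2920 and 849 against 204 and 224) and Krt18 (2291 and 512 against 353 and 417), with Sox17, Foxa2 and Eomes at 0 throughout but not measured, having several accessions each, and 1 of 7 above the filter, Nes, fell. The summed fibroblast markers overlapped, at 1397 and 2454 against 2048 and 2154. That sum rested mainly on Vim (826 and 1975 against 1536 and 1578). Dcn, which has 2 accessions and was not measured, was at 0 throughout. Of the 5 above the filter 2 fell, Col1a1 (196 and 148 against 34.2 and 53.7) and Acta2 (217 and 180 against 2.20 and 0). Thy1 rose (109 and 125 against 450 and 511). Of 6 linker histone genes above the filter 2 rose, H1f0 by 1.98 and H1f10 by 1.63 on the log2 scale. Replicates were at least 2-fold apart at 13.3% of the accessions kept in WT and at 6.52% in H1-TKO mESCs, and 11.8% of the normalized total of WT replicate 2 lay on 1 accession against about 2% in the others. The part of these differences in the members' values was not tested.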

How the data were processed

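The RNA-seq of R1 mESCs comprised 4 poly(A) libraries, 2 of WT and 2 of H1-TKO. For these the authors aligned paired-end reads with Subread on the mm9 gene annotation, used those mapped uniquely, took counts per accession from featureCounts and scaled them by size factors of DESeq2. The deposited signal is therefore a normalized count per RefSeq accession. Every value (100%) was a whole multiple of 1 read's worth within a relative tolerance of 0.001, which returned the reads. The deposited score of an H3K27me3 peak is -10 times the log10 of the p-value of MACS, run by the authors on bowtie2 alignments to mm9. How reads shared between accessions were handled is not given in the sources used here.

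Gene symbols came from a RefSeq table of GRCm38.p6 (33646 of 34010 accessions matched), used for names and promoter sequence. Places and transcript lengths came from GENCODE M1 on NCBIM37, the assembly that mm9 names, and a length was found for 97.1% of the accessions kept.

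The filter required a mean of 10 normalized counts over the 4 libraries. limma 3.58.1 (R 4.3.3) with eBayes and a trend compared H1-TKO with WT on log2(normalized count + 1), a scale that understates changes of low genes, and p-values were adjusted over the 11113 accessions by the Benjamini-Hochberg method. An accession with an adjusted p under 0.05 was called. The limma step was checked on data with known answers. The recovered reads served for alternatives with edgeR 4.0.16 and with DESeq2 1.42.0, beside other pseudocounts, filters and scalings, a replicate block and each library left out. The fits with length or GC trends removed and the sums over accessions were added after seeing the data. Named genes were the 8 members in full and, in each other list, up to 4 called genes with the largest log2 fold change and up to 2 others with the highest mean, with the 3 accessions nearest in profile to Kmt2d. For a listed gene with several accessions the most abundant was used. The members and lists were chosen with earlier results of these data known. The other assays of the series were not analysed here.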

Additional observations from a re-analysis of the deposited data

How the results depend on the processing

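The 6 members had a negative log2 fold change in all 18 alternatives. Kmt2d kept its call in 17 of them and lost it in limma without a trend (-1.22, adjusted p = 0.0582). That setting called 43 accessions higher and 37 lower and 0 members, of which 2 had an unadjusted p under 0.05. With edgeR 2 members and 2163 accessions were called, and with DESeq2 3 members and 2417 accessions. Kmt2c lost its call with a filter of a mean of at least 1, without a filter and in limma without a trend (-0.65 each, adjusted p = 0.0593, 0.0657 and 0.132), with the length trend removed (-0.24) and with length and GC trends removed (-0.28). With the latter Kdm6a was called (-0.47, adjusted p = 0.0399). DESeq2 called Crebbp (-0.66, adjusted p = 0.0377). The number of members called lower was 1 with a filter of at least 1, without a filter and with the length trend removed. The numbers of accessions called higher and lower were 702 and 765 with a filter of at least 1 and 624 and 697 without one, where more accessions were tested.

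With the replicate block, 4 members were called lower (Kdm6a at -0.50, adjusted p = 0.0326, and Crebbp at -0.63, adjusted p = 0.00524, besides Kmt2c and Kmt2d), and 1521 accessions were called higher and 1778 lower. The replicate numbers are shared names only: the differences between replicates correlated at 0.01 between the genotypes.

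With 1 library left out, the lone library of a genotype is assumed to vary like the other pair. The log2 fold change then ran from -0.61 to -0.39 for Kdm6a, -0.52 to -0.16 for Kdm6b, -0.82 to -0.49 for Kmt2c, -1.36 to -1.08 for Kmt2d, -0.27 to -0.24 for Ep300 and -0.99 to -0.27 for Crebbp. The members called numbered 1 without either H1-TKO library (Kmt2d), 6 without WT replicate 1 and 5 without WT replicate 2, and lay between 1 and 6. The accessions called higher ran from 199 to 2682 and those called lower from 386 to 2786, the high counts without a WT library and the low ones without an H1-TKO library. The causes were not tested. Members without a peak at a start numbered 8 within 1 kb, 2 kb and 5 kb of a start.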
